A study of Danio rerio with 9 samples.

Results

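The genes described here are the DNA repair and Fanconi pathway genes of zebrafish embryos that lack 1 of a pair of histone demethylase genes. They were chosen by name, from a list of 44 repair gene symbols, of which 43 matched the deposited gene table. The symbol UNG is carried by 2 identifiers, so the 43 names gave 44 rows among 32520 genes, and all 44 were tested in every comparison. The name mre11a matched no row. The gene that carries the current name MRE11 (ENSDARG00000105014) was added later and is not counted. RNA was sequenced from whole embryos of 3 groups with 3 libraries each, namely kdm4aa knockout, kdm4ab knockout and wild type. The targeted genes both code for KDM4 demethylases, enzymes that strip methyl groups off histone H3. No other allele or treatment is named in the labels. The stage, the nature of the alleles, the number of embryos in a library and whether libraries came from separate clutches are not stated in the labels. P-values therefore reflect spread among these libraries alone, and that spread may be technical. The study sought targets of kdm4aa in embryos whose development was slowed and in which more cells died.

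Each repair pathway deals with its own kind of lesion. Homologous recombination copies an intact sister DNA into a double-strand break, and end joining ligates the broken ends directly. The Fanconi pathway unhooks crosslinks between the strands: a core complex of FANC proteins attaches ubiquitin to FANCD2 and FANCI, and recombination and translesion polymerases complete the repair. Mismatch repair corrects replication errors, nucleotide excision repair removes bulky and ultraviolet lesions, and base excision repair replaces single damaged bases and seals nicks. The kinases ATM and ATR signal the damage to the cell cycle. An early embryo divides fast and carries many repair transcripts laid down by the mother, so a level in a whole embryo may be of maternal or embryonic origin. In whole embryos, fewer cells of a type and less RNA per cell cannot be told apart.

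Library totals were 27894551 to 46156237 counts, and levels are in CPM, counts relative to library size, which was scaled here by the trimmed mean of M values (TMM). The kdm4ab knockout replicate 2 library stood apart. Only 14247 genes had any count there, where the other 8 libraries had 22025 to 23019, and 41 of the 44 repair rows did, against 44. On log2 CPM it correlated at no more than 0.848 with its group, where all other pairs within a group reached at least 0.983. Results of the kdm4ab knockout therefore state whether it was included, and without it the group rests on 2 libraries. The transcript of kdm4ab was at 2.38, 0 and 2.21 CPM in kdm4ab knockout libraries 1, 2 and 3, against 127, 168 and 121 CPM in wild type. The transcript of kdm4aa was at 17.9, 14.7 and 17.2 CPM in kdm4aa knockout libraries, against 18.0, 20.6 and 18.5 CPM in wild type, and did not pass the test (log2 -0.20, adjusted p 0.166). Its level thus does not check the kdm4aa knockout label. In the kdm4ab knockout, every library was below every wild type library for kdm4aa. Its log2 change there was -0.36 without replicate 2 (edgeR, adjusted p 0.0388) and -0.93 with it (adjusted p 0.744).

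**Figure D1:**
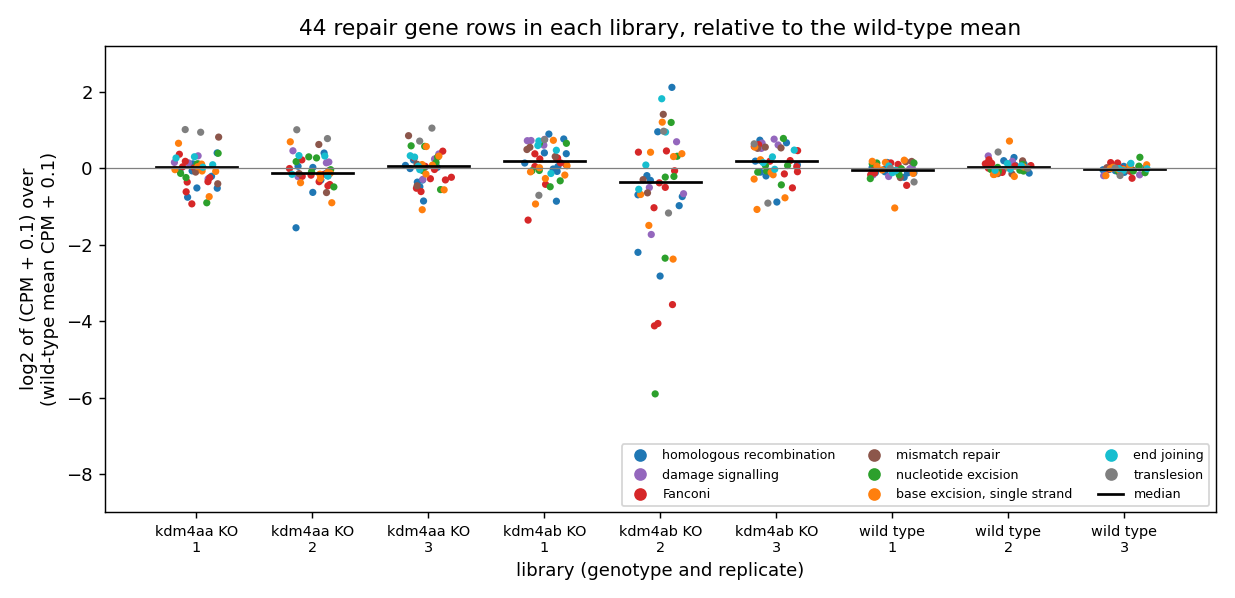
Each point is 1 of the 44 repair rows in 1 library, placed by the log2 of its CPM plus 0.1 over the wild type mean plus 0.1, with the libraries of kdm4aa knockout, kdm4ab knockout and wild type side by side. In kdm4ab knockout replicate 2, 17 rows lie more than 1 from the wild type mean, down to -5.90 and up to 2.12, where each of the other 8 libraries has 0 to 2 such rows.

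In the kdm4aa knockout, 18 of the 44 repair rows differed from wild type, 10 higher and 8 lower, which is 40.9% of them. The median log2 change was -0.04 over the repair rows and 0.00 over all genes. The comparison called 51.1% of all 18196 tested genes, 25.2% higher and 25.8% lower. Changes of repair genes were small. Only 2 rows, or 4.55%, changed by more than 1 on the log2 scale, against 22.4% of all genes. In such shares the repair rows and all genes were not matched for level. Against a fold of 1.5 (edgeR's glmTreat), RAD51C, MSH6 and rad18 passed, where 18.9% of all genes did. Calls are from edgeR's quasi-likelihood F-test at a Benjamini-Hochberg adjusted p under 0.05 over all genes, fitted on the 6 libraries compared. With a spread shared by all 9 libraries, which carries the library that stands apart, xrcc1 and rad18 alone kept their calls and 8.88% of all genes were called.

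In the kdm4ab knockout, chek2 and rad18 rose with all 3 libraries in edgeR's fit of the 6 libraries, in which 11 repair rows, 3 of them lower, had an unadjusted p under 0.05. That is 2 of 44 rows called, where 6.03% of 18097 genes were called, 3.33% higher and 2.71% lower. The fit of all 9 libraries called 10 rows, where 17% of all genes were called. In it RAD52, chek2, PMS2, ERCC3, xrcc1, XRCC5 and rad18 were higher, and RAD51B, LIG3 and POLH were lower. DESeq2 also called RAD51B, LIG3 and POLH lower, among the 9 rows and 3738 of 18097 genes that it called. Without replicate 2, 23 rows differed, 19 higher and 4 lower, which is 52.3% of the rows, against 51.1% of 19146 genes, of which 26.1% were higher and 25% lower. The median log2 change over the rows was then 0.20, against 0.01 over all genes. No row then changed by more than 1 on the log2 scale, where 29.5% of all genes did, and RAD51B and LIG3 passed a test against a fold of 1.5, where 22.7% of all genes did. Both comparisons use the same wild type libraries, so their values are set side by side below, and the difference between the knockouts is taken from the direct test between them.

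**Figure D2:**
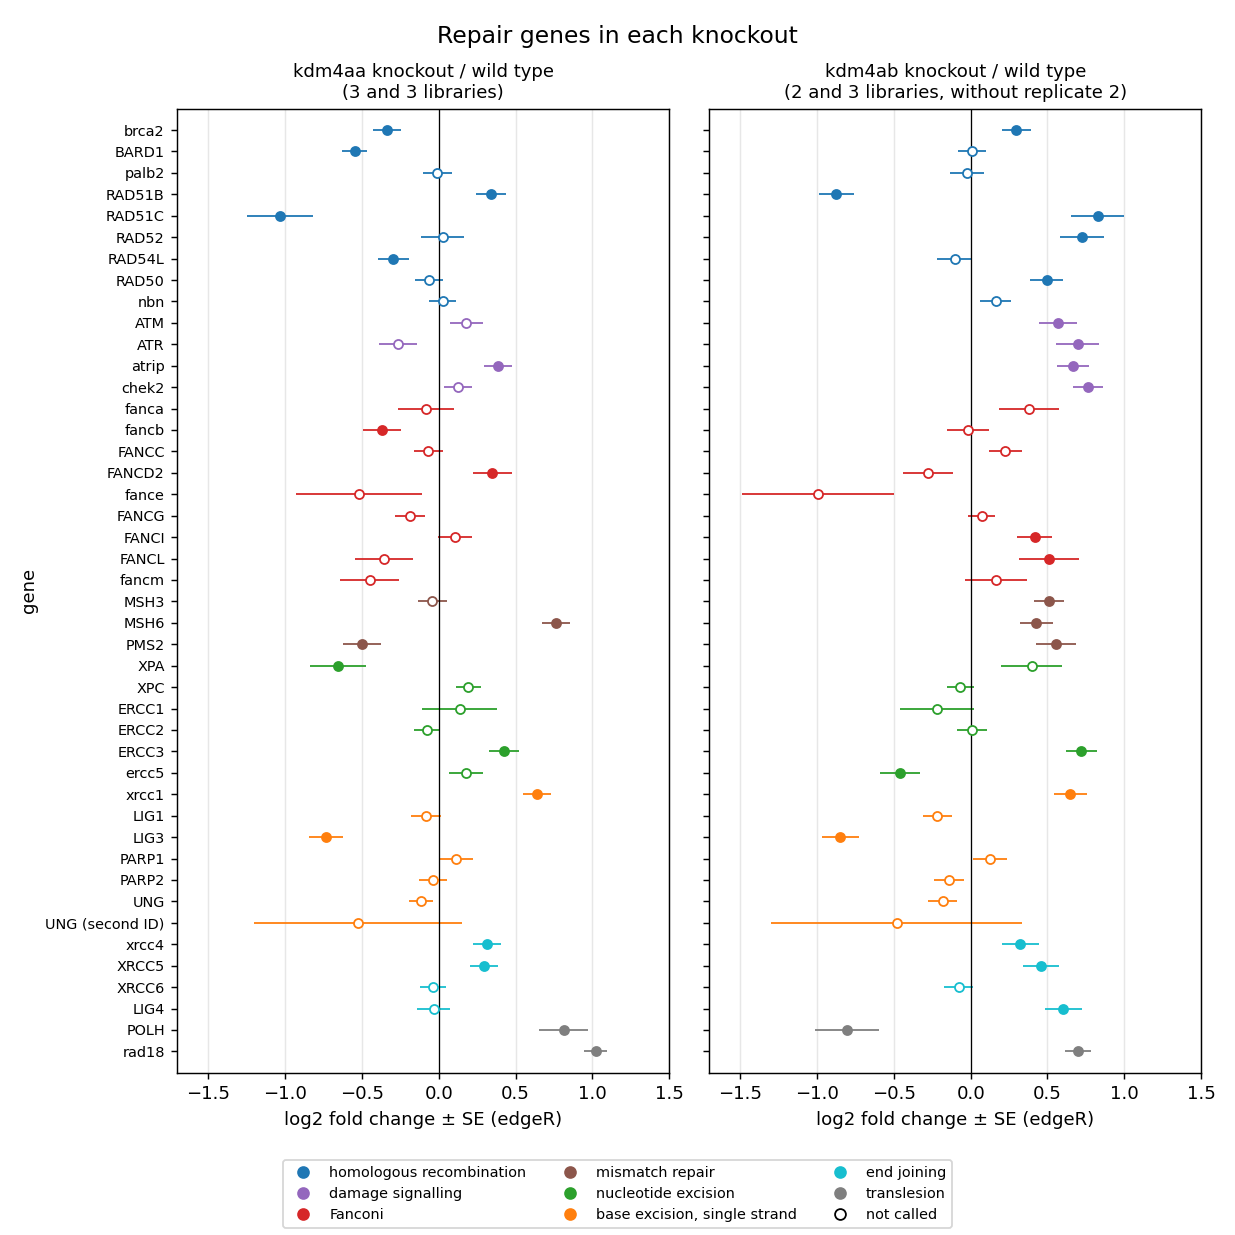
Log2 fold change over wild type of each repair row, with its standard error, in the kdm4aa knockout and in the kdm4ab knockout without replicate 2; filled points passed an adjusted p under 0.05. Of the 44 rows, 18 are filled for the kdm4aa knockout and 23 for the kdm4ab knockout, and values past 1 in size occur in 2 rows of the kdm4aa knockout and in none of the kdm4ab knockout.

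Of 9 homologous recombination genes in the kdm4aa knockout, RAD51C, BARD1, brca2 and RAD54L fell, and RAD51B rose, where 51.1% of all genes were called. RAD51C and RAD51B act together in a complex that takes part in the early steps of recombination. RAD51C had 4.92, 2.78 and 4.59 CPM in kdm4aa knockout libraries, 15.7, 36.7 and 14.0 CPM in kdm4ab knockout libraries and 7.10, 10.2 and 7.84 CPM in wild type. No libraries of the 3 groups overlapped, the kdm4aa knockout being lowest and the kdm4ab knockout highest. It fell by 1.03 on the log2 scale in the kdm4aa knockout (SE 0.21, adjusted p 0.000870). In the kdm4ab knockout its log2 change was 1.40 with all libraries (adjusted p 0.118) and 0.83 without replicate 2 (adjusted p 0.00159). RAD51B showed the opposite order, with 47.1, 47.0 and 41.4 CPM in kdm4aa knockout libraries, 19.6, 28.6 and 19.3 CPM in kdm4ab knockout libraries and 32.7, 37.3 and 36.9 CPM in wild type. It rose by 0.34 in the kdm4aa knockout (adjusted p 0.00796). In the kdm4ab knockout its log2 change was -0.87 without replicate 2 (adjusted p 5.24e-05) and -0.66 with it (adjusted p 0.144).

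BRCA2 is a central mediator of recombination, PALB2 links it to BRCA1, and BARD1 is the partner of BRCA1 in a ubiquitin ligase. Transcripts of brca2 were at 78.5, 97.9 and 90.6 CPM in kdm4aa knockout libraries, 146, 69.4 and 129 CPM in kdm4ab knockout libraries and 103, 121 and 112 CPM in wild type. Every kdm4aa knockout library was thus below every wild type library, and kdm4ab knockout libraries 1 and 3 were above them while library 2 was below. The log2 change was -0.34 in the kdm4aa knockout (SE 0.09, adjusted p 0.00700), and in the kdm4ab knockout 0.30 without replicate 2 (adjusted p 0.0207) and 0.04 with it (adjusted p 0.952). BARD1 had 54.3, 50.3 and 55.8 CPM in kdm4aa knockout libraries, 73.6, 11.0 and 82.9 CPM in kdm4ab knockout libraries and 78.8, 80.3 and 74.5 CPM in wild type. It fell by 0.55 in the kdm4aa knockout (adjusted p 5.30e-05), and its log2 change in the kdm4ab knockout was 0.01 without replicate 2 (adjusted p 0.949) and -0.47 with it (adjusted p 0.718). The gene palb2 lay between 26.6 and 30.0 CPM in 8 libraries and at 17.1 CPM in kdm4ab knockout replicate 2, and did not pass any of these tests.

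RAD52 anneals single strands, RAD54L is a motor that helps a strand invade the partner DNA, and RAD50, MRE11 and NBN form the complex that first trims broken ends. RAD52 had 9.67, 8.20 and 9.39 CPM in kdm4aa knockout libraries, 15.2, 17.4 and 14.2 CPM in kdm4ab knockout libraries and 8.78, 8.48 and 9.48 CPM in wild type. All kdm4ab knockout libraries, replicate 2 included, were above all others, with a log2 change over wild type of 0.73 without replicate 2 (adjusted p 0.00102) and 0.81 with it (adjusted p 0.0851). RAD50 rose by 0.49 in the kdm4ab knockout without replicate 2 (adjusted p 0.00190) and had a log2 change of 0.15 with it (adjusted p 0.854), where that library held 28.7 CPM and the other two 74.8 and 84.3 CPM. RAD54L fell by 0.29 in the kdm4aa knockout (adjusted p 0.0207), a call that was lost without kdm4aa knockout replicate 2 (adjusted p 0.0515) or replicate 3 (0.0738) and without wild type replicate 2 (0.120). For nbn the log2 change was 0.03 in the kdm4aa knockout (adjusted p 0.833) and in the kdm4ab knockout 0.16 without replicate 2 (adjusted p 0.197) and -0.28 with it (adjusted p 0.811). MRE11, outside the count, fell by 0.28 in the kdm4aa knockout (adjusted p 0.0382). That call was lost in a fit of 8 libraries without kdm4ab knockout replicate 2 (adjusted p 0.0522). In the kdm4ab knockout the log2 change of MRE11 was 0.02 without replicate 2 (adjusted p 0.899) and -0.04 with it (adjusted p 0.920).

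All 4 damage signalling genes rose in the kdm4ab knockout when replicate 2 was left out, 1 of 4 rose with it, and 1 of 4 rose in the kdm4aa knockout. Of all genes, 26.1%, 3.33% and 25.2% were higher in these 3 fits. CHEK2 is the kinase that relays the signal of ATM, and ATRIP is the partner that brings ATR to exposed single strands. Transcripts of chek2 were at 32.4, 32.9 and 31.2 CPM in kdm4aa knockout libraries, 49.7, 47.6 and 49.9 CPM in kdm4ab knockout libraries and 29.9, 29.1 and 29.2 CPM in wild type. Here kdm4ab knockout replicate 2 was close to its group, and chek2 rose by 0.75 with all libraries (SE 0.15, adjusted p 0.0435) and by 0.76 without it (adjusted p 4.13e-05). With all libraries the call was lost under other size factors (adjusted p 0.0522) and when any library but replicate 2 was left out (0.122 to 0.275). ATR had 50.4, 52.4 and 49.9 CPM in kdm4aa knockout libraries, 101, 38.4 and 96.4 CPM in kdm4ab knockout libraries and 52.6, 76.3 and 54.2 CPM in wild type. Replicates 1 and 3 of the kdm4ab knockout were above every other library and replicate 2 was below, so the log2 change was 0.70 without replicate 2 (adjusted p 0.00126) and 0.37 with it (adjusted p 0.620). ATM followed the same order, with 39.6, 7.76 and 37.3 CPM in kdm4ab knockout libraries and 25.8, 29.5 and 22.7 CPM in wild type. Its log2 change was 0.57 without replicate 2 (adjusted p 0.00222) and 0.13 with it (adjusted p 0.921). The gene atrip rose by 0.38 in the kdm4aa knockout (adjusted p 0.00242), and its log2 change in the kdm4ab knockout was 0.67 without replicate 2 (adjusted p 0.000187) and 0.38 with it (adjusted p 0.546).

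Of 9 Fanconi genes tested in the kdm4aa knockout, FANCD2 rose and fancb fell, where 51.1% of all genes were called. FANCI and FANCL rose in the kdm4ab knockout without replicate 2, where 51.1% of all genes were called. With all libraries edgeR called 0 of the 9, with 0 at an unadjusted p under 0.05, where it called 6.03% of all genes. DESeq2 called none of them, where it called 3738 of 18097 genes. FANCD2 and FANCI form the pair that is tagged with ubiquitin, FANCL is the ligase that does so, and FANCB sits beside it in the core complex. FANCD2 had 13.8, 12.5 and 14.6 CPM in kdm4aa knockout libraries, 7.96, 5.17 and 9.64 CPM in kdm4ab knockout libraries and 11.8, 9.90 and 10.4 CPM in wild type. All kdm4aa knockout libraries were above wild type and all kdm4ab knockout libraries below it. Its log2 change was 0.35 in the kdm4aa knockout (adjusted p 0.0332), and in the kdm4ab knockout -0.28 without replicate 2 (adjusted p 0.168) and -0.49 with it (adjusted p 0.401). The kdm4aa knockout call was lost without kdm4aa knockout replicate 1 (adjusted p 0.0800) or 3 (0.108) and without wild type replicate 2 (0.0948) or 3 (0.0995). Its partner FANCI had 62.8, 49.3 and 67.0 CPM in kdm4aa knockout libraries, 65.6, 3.23 and 82.3 CPM in kdm4ab knockout libraries and 52.3, 60.3 and 53.6 CPM in wild type. The library that stands apart held far less FANCI than its group, and the log2 change was 0.42 without it (adjusted p 0.00868) and -0.13 with it (adjusted p 0.953).

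The ligase gene FANCL had 3.56, 3.29 and 3.86 CPM in kdm4aa knockout libraries, 5.96, 0.168 and 7.06 CPM in kdm4ab knockout libraries and 4.05, 4.58 and 5.07 CPM in wild type. Its log2 change was 0.51 in the kdm4ab knockout without replicate 2 (adjusted p 0.0434) and -0.04 with it (adjusted p 0.984), and -0.36 in the kdm4aa knockout (adjusted p 0.133). The core gene fancb had 9.87, 9.43 and 10.3 CPM in kdm4aa knockout libraries and 12.2, 13.3 and 12.5 CPM in wild type, groups that did not overlap (log2 -0.37, adjusted p 0.0214). Its call was lost without kdm4aa knockout replicate 1 (adjusted p 0.0530) or 2 (0.0601) and without wild type replicate 2 (0.0625) or 3 (0.0565). The core genes fanca, FANCC, FANCG and fance, and fancm, whose product is a translocase that brings the core complex to DNA, passed neither test against wild type. Of these, fance was lowest in count, at 0.521, 1.08 and 0.676 CPM in kdm4aa knockout libraries, 0.363, 0 and 0.730 CPM in kdm4ab knockout libraries and 1.04, 1.19 and 1.02 CPM in wild type. A count of 0 in kdm4ab knockout replicate 2 allows up to 0.101 CPM, from 3 counts, which covers counting error only.

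Mismatch repair genes moved in opposite directions within the kdm4aa knockout, where MSH6 rose and PMS2 fell of 3 tested. That fit called 51.1% of all genes. MSH6 takes part in finding mismatches, MSH3 in finding larger loops, and PMS2 is the nicking subunit that acts after them. MSH6 had 218, 191 and 224 CPM in kdm4aa knockout libraries, 153, 79.3 and 179 CPM in kdm4ab knockout libraries and 140.3, 112 and 119.6 CPM in wild type. The kdm4aa knockout libraries were above all others, and MSH6 rose by 0.76 there (SE 0.09, adjusted p 5.63e-06). In the kdm4ab knockout its log2 change was 0.43 without replicate 2 (adjusted p 0.00492) and 0.16 with it (adjusted p 0.806). PMS2 had 18.7, 15.9 and 18.0 CPM in kdm4aa knockout libraries, 36.3, 66.0 and 36.4 CPM in kdm4ab knockout libraries and 20.9, 28.3 and 25.0 CPM in wild type. The 3 groups did not overlap, with the kdm4aa knockout lowest. Its log2 change was -0.50 in the kdm4aa knockout (adjusted p 0.00336), and in the kdm4ab knockout 0.56 without replicate 2 (adjusted p 0.00363) and 0.91 with it (adjusted p 0.135). MSH3 rose by 0.51 in the kdm4ab knockout without replicate 2 (adjusted p 0.000958), where its log2 change with that library was 0.29 (adjusted p 0.541), and had a log2 change of -0.04 in the kdm4aa knockout (adjusted p 0.734).

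Among 6 nucleotide excision genes, ERCC3 rose and XPA fell in the kdm4aa knockout, where 51.1% of all genes were called. ERCC3 and ERCC2 are the helicases that open DNA around a lesion, XPC finds the lesion, XPA checks it, and the ERCC1 and ERCC5 proteins take part in cutting on either side. ERCC3 had 66.1, 62.0 and 75.0 CPM in kdm4aa knockout libraries, 79.3, 116 and 86.6 CPM in kdm4ab knockout libraries and 55.5, 49.2 and 46.5 CPM in wild type. Both knockouts lay above wild type in every library. The log2 change was 0.42 in the kdm4aa knockout (adjusted p 0.00177), and in the kdm4ab knockout 0.72 without replicate 2 (adjusted p 8.59e-05) and 0.90 with it (adjusted p 0.0559). XPA had 3.10, 4.16 and 3.96 CPM in kdm4aa knockout libraries, 9.25, 0 and 6.18 CPM in kdm4ab knockout libraries and 5.83, 5.97 and 5.83 CPM in wild type. It fell by 0.65 in the kdm4aa knockout (adjusted p 0.00711), while the log2 change in the kdm4ab knockout was 0.40 without replicate 2 (adjusted p 0.110) and -0.18 with it (adjusted p 0.956). The gene ercc5 had 23.3, 26.0 and 23.9 CPM in kdm4aa knockout libraries, 15.4, 4.13 and 15.9 CPM in kdm4ab knockout libraries and 19.1, 23.1 and 22.3 CPM in wild type. The kdm4ab knockout libraries were the lowest, with a log2 change of -0.46 without replicate 2 (adjusted p 0.0115) and -0.86 with it (adjusted p 0.361). ERCC1, ERCC2 and XPC passed neither test against wild type.

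In base excision and single-strand break repair, 1 of 7 rows rose and 1 fell in the kdm4aa knockout, and the same held in the kdm4ab knockout without replicate 2. Both fits called 51.1% of all genes, and the kdm4ab knockout fit with replicate 2 called 6.03%. With replicate 2, edgeR called 0 of the 7, with 2 at an unadjusted p under 0.05. DESeq2 called xrcc1 higher and LIG3 lower, in a fit that called 3738 of 18097 genes. XRCC1 is the scaffold that holds the repair proteins at a nick, and LIG3 is the ligase bound to it. Transcripts of xrcc1 were at 58.1, 59.7 and 54.8 CPM in kdm4aa knockout libraries, 61.3, 49.4 and 54.2 CPM in kdm4ab knockout libraries and 33.6, 37.8 and 39.3 CPM in wild type. LIG3 had 67.4, 60.4 and 76.3 CPM in kdm4aa knockout libraries, 59.0, 40.0 and 66.0 CPM in kdm4ab knockout libraries and 131, 97.3 and 111 CPM in wild type. For the scaffold the 6 knockout libraries all lay above wild type, and for its ligase below it. The scaffold rose by 0.64 in the kdm4aa knockout (SE 0.09, adjusted p 3.54e-05), and its log2 change in the kdm4ab knockout was 0.65 without replicate 2 (adjusted p 0.000338) and 0.58 with it (adjusted p 0.105). LIG3 fell by 0.73 in the kdm4aa knockout (SE 0.11, adjusted p 4.71e-05), and its log2 change in the kdm4ab knockout was -0.85 without replicate 2 (adjusted p 8.97e-05) and -1.03 with it (adjusted p 0.0644). LIG1, the replication ligase, PARP1 and PARP2, which sense nicks, and UNG, which removes uracil from DNA, passed neither test. The second UNG row (ENSDARG00000094922) was at most 0.75 CPM in any library and at 0 in kdm4ab knockout replicate 2. Because 2 identifiers share the symbol, how reads were divided between them is uncertain.

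The end joining genes were XRCC5 and XRCC6, whose products form the Ku ring that grips a broken end, with xrcc4 and LIG4, which make up the ligase. XRCC5 had 47.6, 49.7 and 48.4 CPM in kdm4aa knockout libraries, 59.7, 76.2 and 48.6 CPM in kdm4ab knockout libraries and 36.5, 38.9 and 43.2 CPM in wild type. Each knockout library was above each wild type library. The log2 change was 0.30 in the kdm4aa knockout (adjusted p 0.0137, or 0.0696 without wild type replicate 1), and in the kdm4ab knockout 0.46 without replicate 2 (adjusted p 0.00633) and 0.64 with it (adjusted p 0.138). The other Ku gene, XRCC6, passed neither test, at 63.5 to 76.0 CPM in kdm4aa knockout libraries, 49.9 to 71.7 CPM in kdm4ab knockout libraries and 70.4 to 76.2 CPM in wild type. The ligase partner xrcc4 rose by 0.31 in the kdm4aa knockout (adjusted p 0.00838) and by 0.32 in the kdm4ab knockout without replicate 2 (adjusted p 0.0395), with a log2 change of 1.01 when it was included (adjusted p 0.238). That library held 138 CPM of xrcc4, against 54.1 and 43.2 CPM in the other kdm4ab knockout libraries and 37.1, 42.5 and 37.3 CPM in wild type. LIG4 had a log2 change of -0.03 in the kdm4aa knockout (adjusted p 0.821) and 0.60 in the kdm4ab knockout without replicate 2 (adjusted p 0.00104) or 0.46 with it (adjusted p 0.276).

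Both translesion genes rose in the kdm4aa knockout, where 25.2% of all genes were higher. RAD18 is the ligase that tags the replication clamp PCNA with ubiquitin at stalled forks, and POLH is the polymerase that then copies past ultraviolet lesions. Transcripts of rad18 were at 125, 124.6 and 128 CPM in kdm4aa knockout libraries, 104, 121 and 96.5 CPM in kdm4ab knockout libraries and 61.8, 61.9 and 62.2 CPM in wild type. Every knockout library lay above every wild type library. In the kdm4aa knockout rad18 rose by 1.02 (SE 0.07, adjusted p 2.63e-08), and it passed in all 14 fits of that comparison. In the kdm4ab knockout it rose by 0.80 with all libraries (adjusted p 0.0402) and by 0.70 without replicate 2 (adjusted p 3.25e-05). With all libraries the call was lost under other size factors (adjusted p 0.0526) and when any library but replicate 2 was left out (0.0914 to 0.249). POLH had 37.8, 33.7 and 32.2 CPM in kdm4aa knockout libraries, 12.0, 8.67 and 10.4 CPM in kdm4ab knockout libraries and 15.3, 26.4 and 17.2 CPM in wild type. The groups did not overlap, with the kdm4aa knockout highest and the kdm4ab knockout lowest. POLH rose by 0.81 in the kdm4aa knockout (SE 0.16, adjusted p 0.000582), and its log2 change in the kdm4ab knockout was -0.81 without replicate 2 (adjusted p 0.00620) and -0.92 with it (adjusted p 0.130).

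**Figure D3:**
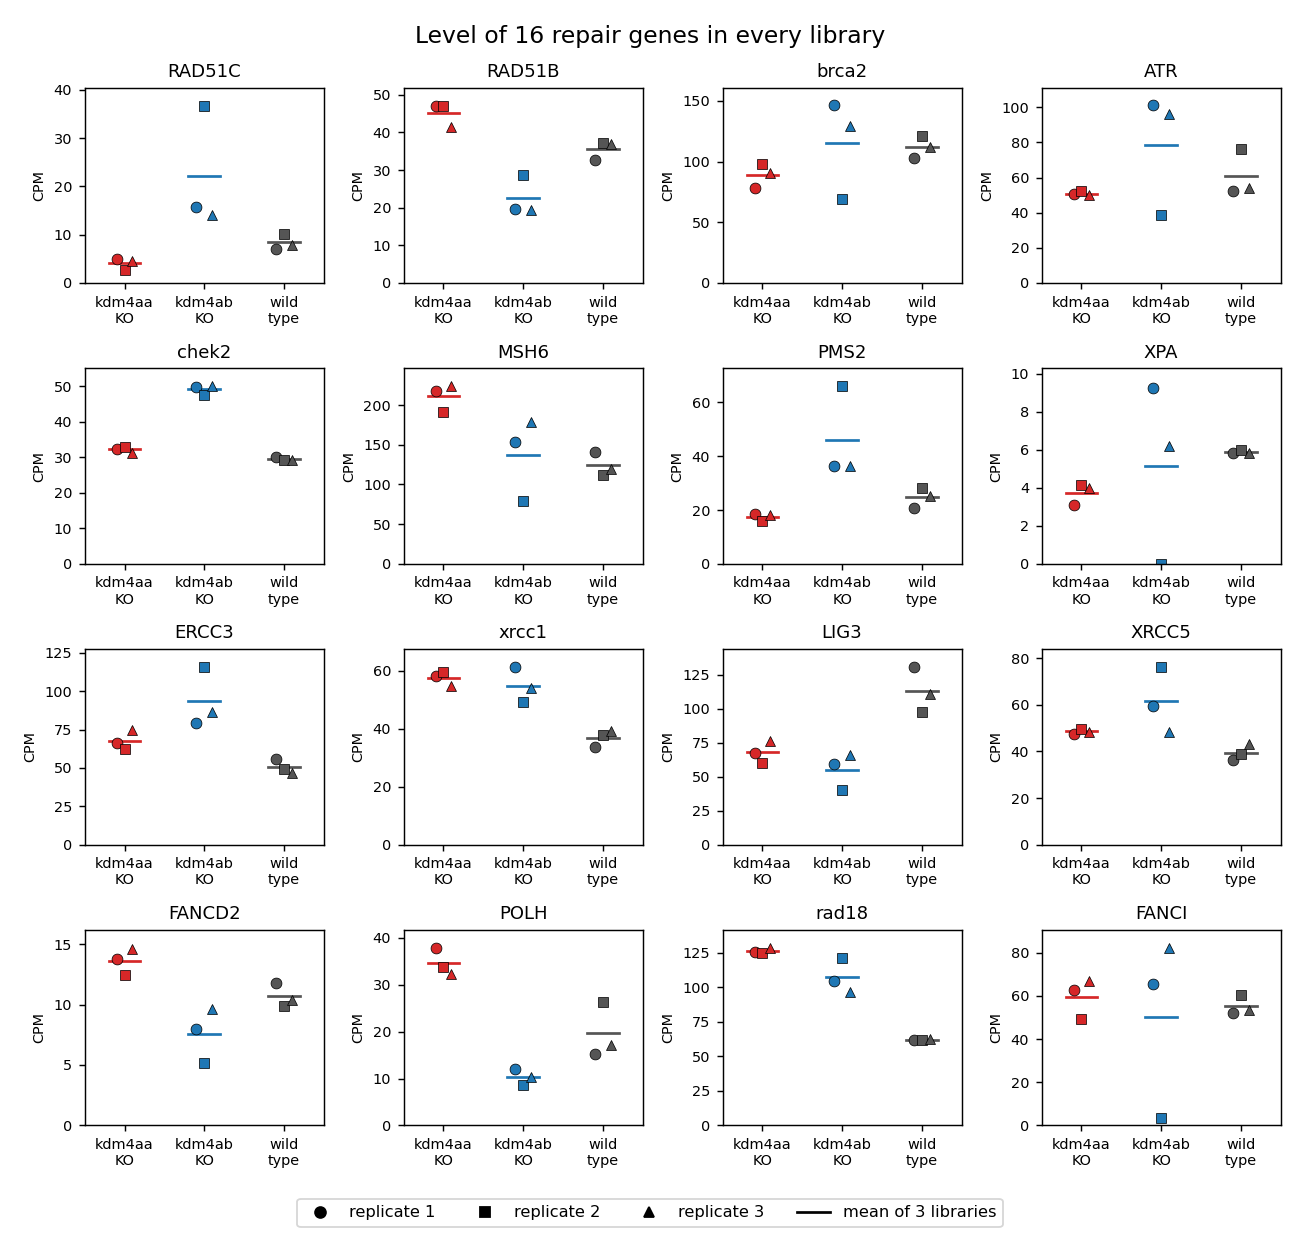
CPM of 16 repair genes in each library, by group, with kdm4aa knockout, kdm4ab knockout and wild type side by side and 3 points per group. For rad18 the wild type points, at 61.8 to 62.2 CPM, lie below every knockout point, and for POLH the kdm4aa knockout points lie at 32.2 to 37.8 CPM and the kdm4ab knockout points at 8.67 to 12.0 CPM.

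Tested directly against each other, the knockouts differed in RAD51C and PMS2, lower in the kdm4aa knockout, and in POLH, higher there, when all 6 libraries entered. That is 3 of 44 rows, where 7.09% of 17746 genes were called, 2.95% higher and 4.14% lower. The log2 difference of the kdm4aa knockout over the kdm4ab knockout was -2.44 for RAD51C (SE 0.49, adjusted p 0.0397), -1.41 for PMS2 (SE 0.29, adjusted p 0.0446) and 1.73 for POLH (SE 0.21, adjusted p 0.0126). Leaving out any library but kdm4ab knockout replicate 2 ended all 3 calls, with adjusted p of 0.0778 to 0.202 for RAD51C, 0.0896 to 0.227 for PMS2 and 0.0614 to 0.108 for POLH. The PMS2 call was also lost under other size factors and with no filter, where 2 rows were called. Without that replicate, 24 rows differed, 7 higher and 17 lower in the kdm4aa knockout, which is 54.5% of the rows, where 53.8% of 18905 genes were called, 26.4% higher and 27.4% lower. The same 3 genes then had differences of -1.85, -1.05 and 1.63, with adjusted p of 1.25e-06, 2.27e-06 and 4.57e-08. Against a fold of 1.5, RAD51B and POLH passed as higher in the kdm4aa knockout, and RAD51C, ATR, PMS2 and XPA as lower, where 25.1% of all genes passed.

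By pathway, and without replicate 2, 5 of 9 homologous recombination genes were lower in the kdm4aa knockout than in the kdm4ab knockout and RAD51B alone was higher, by 1.22 (adjusted p 2.86e-07). Lower ones were RAD51C, brca2 (log2 -0.63), BARD1 (-0.55), RAD50 (-0.55) and RAD52 (-0.69). This fit called 26.4% of all genes higher and 27.4% lower. All 4 signalling genes were lower, with a log2 difference of -0.95 for ATR (adjusted p 4.99e-07) and -0.63 for chek2 (adjusted p 0.000119). Of the Fanconi genes FANCD2 was higher and FANCC, FANCL and fancm were lower. Of the mismatch genes MSH6 was higher, and PMS2 and MSH3 were lower. Both translesion genes were higher. In nucleotide excision, XPA (log2 -1.04) and ERCC3 (-0.29) were lower, and ercc5 (0.65) and XPC (0.27) were higher. In end joining, LIG4 alone passed and was lower (-0.63). For base excision repair no row passed (edgeR, 0 of 7, with 0 at an unadjusted p under 0.05): the log2 difference was 0.00 for xrcc1 (SE 0.11) and 0.13 for LIG3 (SE 0.12), which does not show that the knockouts are alike in them. With replicate 2 included, the difference was 0.06 for xrcc1 (SE 0.16) and 0.30 for LIG3 (SE 0.24).

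**Figure D4:**
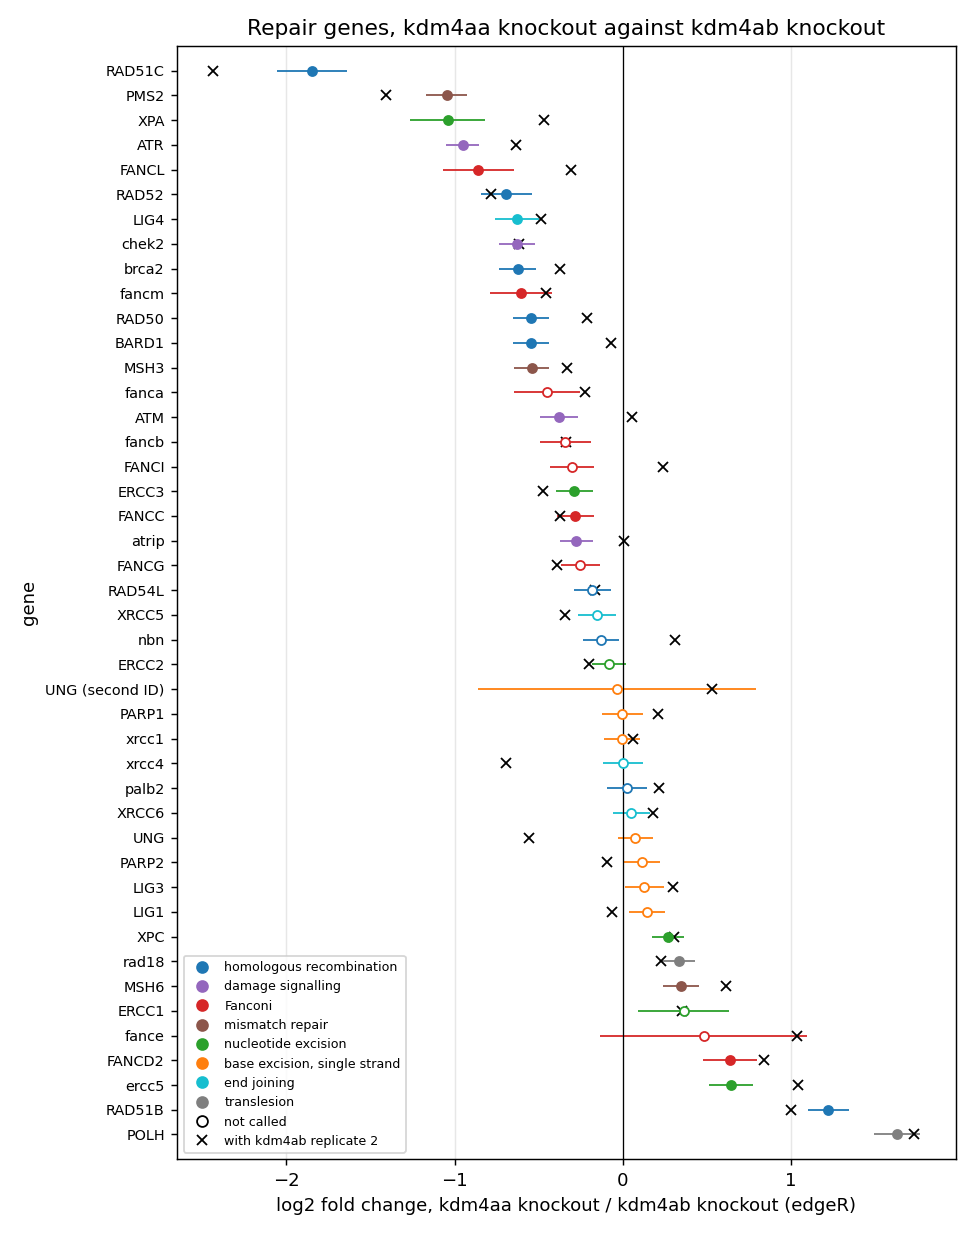
Log2 difference of each repair row between the kdm4aa knockout and the kdm4ab knockout, circles with standard errors without kdm4ab knockout replicate 2 and crosses with it; positive values are higher in the kdm4aa knockout. RAD51C, at -1.85, and POLH, at 1.63, lie furthest from 0 among the circles, and crosses and circles differ most in rows where replicate 2 stands far from its group.

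Another 124 rows of repair genes outside the list were looked at in the same fits. In the kdm4aa knockout 35 of 121 tested rose and 17 fell, which is 43% of them, against 51.1% of all genes. With all kdm4ab knockout libraries 3 rose and 1 fell, which is 3.31% of them against 6.03% of all genes. Without replicate 2, 38 rose and 27 fell of 122, which is 53.3% of them against 51.1% of all genes. The genes of base excision and single-strand break repair named next were picked from the called genes with the smallest p, so they do not describe their class. The end-processing kinase gene pnkp had 116, 113 and 127 CPM in kdm4aa knockout libraries, 58.3, 36.1 and 54.9 CPM in kdm4ab knockout libraries and 62.2, 54.7 and 56.9 CPM in wild type. It rose by 1.03 in the kdm4aa knockout (adjusted p 9.23e-08), where every library was above every other. NEIL1, a glycosylase for oxidised bases, had 62.8, 56.6 and 60.5 CPM in kdm4aa knockout libraries, 14.7, 26.6 and 12.6 CPM in kdm4ab knockout libraries and 33.0, 29.8 and 30.6 CPM in wild type. It rose by 0.94 in the kdm4aa knockout (adjusted p 4.64e-07), and its log2 change in the kdm4ab knockout was -1.18 without replicate 2 (adjusted p 8.13e-06) and -0.79 with it (adjusted p 0.201). TDP1, which frees trapped topoisomerase from DNA, had 6.92, 6.44 and 8.84 CPM in kdm4aa knockout libraries, 31.0, 31.0 and 28.5 CPM in kdm4ab knockout libraries and 11.7, 12.8 and 12.4 CPM in wild type. Its kdm4ab knockout libraries, replicate 2 included, were the highest, and TDP1 rose there by 1.30 with all libraries (adjusted p 0.0184) and by 1.28 without replicate 2 (adjusted p 2.99e-06). With all libraries the call was lost when replicate number entered the fit as a block, which called 0 genes. Leaving out 1 wild type library left 2 genes called in all. Between the knockouts APEX1, pnkp, NEIL1 and FAN1 were higher in the kdm4aa knockout and TDP1 and WDR48 (ENSDARG00000102302) lower, with all libraries. That fit called 7.09% of all genes. Leaving out 1 kdm4aa knockout library left 1 or 2 genes called in all, and the replicate block left 2. At most 2 of these calls could therefore hold in any such fit.

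Of the other recombination genes, XRCC2 and XRCC3 differed in opposite directions in the kdm4ab knockout without replicate 2. XRCC2 had 1.24, 2.81 and 0.628 CPM in kdm4aa knockout libraries, 7.54, 11.2 and 6.74 CPM in kdm4ab knockout libraries and 1.45, 1.86 and 1.97 CPM in wild type, and rose in the kdm4ab knockout by 2.27 with all libraries (adjusted p 0.0249) and by 2.02 without replicate 2 (adjusted p 1.12e-05). As for TDP1, the XRCC2 call with all libraries was lost with the replicate block. In that comparison, leaving out 1 wild type library left 2 genes called in all. Leaving out kdm4ab knockout replicate 1 or 3 left 54 or 141. XRCC3 had 28.8, 30.3 and 25.0 CPM in kdm4aa knockout libraries, 6.05, 14.6 and 4.96 CPM in kdm4ab knockout libraries and 30.1, 33.6 and 30.4 CPM in wild type. Its log2 change in the kdm4ab knockout was -2.50 without replicate 2 (adjusted p 4.59e-08) and -1.87 with it (adjusted p 0.0663). Around the translesion step, the paralogs UBE2A and UBE2B, both partner enzymes of RAD18, moved in opposite directions in the kdm4aa knockout. The log2 change there was 0.58 for UBE2A (adjusted p 3.25e-05), -1.01 for UBE2B (adjusted p 0.00140) and 0.31 for PCNA (adjusted p 0.00165).

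Other gene lists were read in the same fits, in which 51.1% of all genes were called in the kdm4aa knockout and in the kdm4ab knockout without replicate 2, and 6.03% in the kdm4ab knockout with it. Their part in the repair results was not tested. Summed levels of the kdm4ab knockout include replicate 2, also where the calls beside them leave it out. With replicate 2, edgeR called 2 p53 targets higher, 3 replication genes lower and 3 epidermis markers lower in the kdm4ab knockout. It called 0 maternal oocyte transcripts and 0 germ cell genes there, with 5 and 7 at an unadjusted p under 0.05. Of 17 genes known as p53 targets, 8 rose and 2 fell in the kdm4aa knockout (median log2 0.57), and 10 rose and 3 fell in the kdm4ab knockout without replicate 2 (median 1.17). Their summed level was 2833 to 3098 CPM in kdm4aa knockout libraries, 2473 to 3501 CPM in kdm4ab knockout libraries and 2566 to 2660 CPM in wild type. Of 19 maternal oocyte transcripts, 10 rose and 1 fell in the kdm4aa knockout, and 7 rose and 2 fell in the kdm4ab knockout without replicate 2. They summed to 5917 to 7179 CPM in kdm4aa knockout libraries, 4363 to 10630 CPM in kdm4ab knockout libraries and 3880 to 4182 CPM in wild type, so every knockout library was above every wild type library. Of 11 germ cell genes, 6 rose and 2 fell in the kdm4aa knockout, and 8 rose and 2 fell in the kdm4ab knockout without replicate 2, with sums of 1081 to 1237 CPM in kdm4aa knockout libraries, 1120.3 to 1162 CPM in kdm4ab knockout libraries and 1009.9 to 1062 CPM in wild type. Of 29 replication genes, 8 rose and 5 fell in the kdm4aa knockout, and 6 rose and 7 fell in the kdm4ab knockout without replicate 2.

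All 6 tested epidermis markers fell in the kdm4aa knockout, and of 7 tested in the kdm4ab knockout without replicate 2, 6 fell and 1 rose. These fits called 25.8% and 25% of all genes lower. The summed levels that follow include kdm4ab knockout replicate 2, so they do not cover the same libraries as these kdm4ab knockout calls. The summed level of 8 markers was 431 to 488 CPM in kdm4aa knockout libraries, 839 to 2259 CPM in kdm4ab knockout libraries and 821 to 916 CPM in wild type, and cyt1, krt17 and evpla were at 0 in all kdm4ab knockout libraries. Neural markers summed to 618 to 642 CPM in kdm4aa knockout libraries, 619 to 777 CPM in kdm4ab knockout libraries and 552 to 653 CPM in wild type, with NEUROD1 at 0 in the kdm4ab knockout. Muscle markers summed to at most 2.75 CPM and blood markers to at most 0.973 CPM in any library, with MYOD1 at 0 in the kdm4ab knockout and wild type, MYOG in wild type and the globin hbae1.1 in all 3 groups.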

How the data were processed

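Poly-A RNA of whole embryos was sequenced, and the authors deposited 1 table of raw counts, whole numbers per Ensembl gene and library. Per the submitters' processing notes, the builds were GRCz11 and danRer11. Aligner, counter, annotation and strand setting are unstated there, so reads of overlapping, antisense or near-identical genes may be split unevenly. Symbols came from a table of names that covered 29201 of 32520 identifiers, and 5076 genes had no count. Transcript lengths were not used, so levels are not compared between genes.

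Counts were filtered with filterByExpr, scaled by TMM and compared in R 4.3.3 with edgeR 4.0.16 (quasi-likelihood F-test, two-sided, Benjamini-Hochberg over all genes, called under 0.05), on the 6 libraries of the groups compared. The 9 libraries were not fitted together because kdm4ab knockout replicate 2 widens a shared spread. The biological coefficient of variation was 12.3% for the kdm4aa knockout against wild type and 57.2% for the kdm4ab knockout against wild type, or 13.2% without that library. A standard error is the absolute log2 value over the root of F. Replicates of a group differed by a chi-square of at least 8.31 per gene. Alternatives were a shared spread, RLE size factors, DESeq2 1.42.0, no filter, glmTreat, a replicate block and each library left out. The fit was tested on counts simulated with an equal spread in all libraries. That test does not cover the fits that include kdm4ab knockout replicate 2. The repair genes, the other lists and the tests were chosen with earlier results of these data known. From the repair genes outside the list, up to 4 called genes with the smallest p per class and comparison could be named. No sequence is printed.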

Additional observations from a re-analysis of the deposited data

How the results depend on the processing

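The kdm4aa knockout against wild type called 9290 genes and 18 repair rows. A spread shared by all 9 libraries gave 1687 genes and 2 rows, and glmTreat at a fold of 1.5 gave 3446 and 3. Under the other alternatives, each library left out included, both counts stayed within 1.5 times and no repair gene called here changed sign. The kdm4ab knockout against wild type called 1092 genes and 2 rows. The 9 libraries gave 3232 and 10, 8 libraries without kdm4ab knockout replicate 2 gave 9848 and 23, DESeq2 gave 3738 genes and 9 rows, and glmTreat gave 539 genes, or 4354 genes without that replicate, an alternative added after the data were seen. No row was called by edgeR with RLE size factors (0, with 11 at an unadjusted p under 0.05), with no filter (0, with 11), with glmTreat (0, with 4) or with the replicate block (0, with 6, and 0 genes, with 2791 unadjusted). Leaving out 1 library gave 2 to 9777 genes and 0 to 23 rows, the highest without kdm4ab knockout replicate 2 and 0 rows without any other library. The knockouts compared gave 1259 genes and 3 rows. The 9 libraries gave 3457 and 6, the 8 libraries 10499 and 25, RLE size factors 1290 and 2, DESeq2 3775 and 7, and no filter 828 and 2. With glmTreat there were 571 and 1, or 4747 and 6 without replicate 2. The replicate block gave 2 genes and 0 rows (edgeR, 5 unadjusted), and leaving out 1 library gave 1 to 10169 genes and 0 to 24 rows. No pairing by replicate number was seen: deviations of same-numbered libraries from their group means correlated at -0.05 to 0.08. With 3 libraries per group, this does not settle whether they are paired.

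Among repair genes called in the comparison concerned with or without kdm4ab knockout replicate 2, signs turned in 9. Genes called in neither, such as nbn, are not listed. For the kdm4ab knockout against wild type, FANCI was -0.13, and 0.42 in the 8 libraries and under glmTreat without replicate 2. FANCL was -0.04, and 0.51 in those fits. With brca2 at 0.04, RLE size factors gave -0.020, DESeq2 -0.019 and the replicate block -0.023. ATM, at 0.13, gave -0.14 with the block. Between the knockouts, ATM was 0.06 and atrip 0.01, and they were -0.38 and -0.28 in the 8 libraries and under glmTreat without replicate 2. The block gave 0.33 for BARD1, 0.47 for FANCL and 0.45 for XPA, where all were negative in the fit of the 6 libraries without it. Leaving out 1 library at a time gave, against wild type, -0.19 to 0.30 for brca2, -0.12 to 0.49 for RAD50, -0.21 to 0.57 for ATM, -0.67 to 0.42 for FANCI, -0.56 to 0.51 for FANCL and -0.085 to 0.43 for MSH6. Between the knockouts it gave -0.55 to 0.33 for BARD1, -0.55 to 0.061 for RAD50, -0.38 to 0.38 for ATM, -0.28 to 0.22 for atrip, -0.86 to 0.21 for FANCL and -1.04 to 0.26 for XPA. The cause was not tested.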
